A study of Xenopus laevis with 12 samples.

Results

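The genes described here encode the proteins that shorten the poly(A) tail of mRNA, remove the cap and degrade the body of the transcript in frog gastrulae. They were measured on an Affymetrix expression array in whole single embryos of Xenopus laevis collected at stage 11.5, during gastrulation, with 1 embryo on each array. Per the labels, 6 embryos had been given GFP mRNA alone at the 8-cell stage, and 6 had been given Nkx2-5 mRNA together with GFP mRNA, so GFP mRNA was common to all 12. No dose, injected cell, strain or parentage is given in the labels, and all embryos carry the same experiment number, so a p-value here covers only how much these single embryos vary. Nkx2-5, a homeobox gene needed to build the heart, encodes a DNA-binding regulator, and the study asked which transcripts differ when it is supplied before gastrulation.

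Members were chosen by gene symbol. They were genes whose annotated symbol, without the copy mark .L or .S, starts with zfp36, cnot, dcp, edc, exosc, xrn, upf or smg, or is one of lsm1 to lsm8, pan2, pan3, parn, ddx6, patl1 or patl2. This gave 40 of the 7531 genes that a probe set names alone, and where a gene had several probe sets the brightest by mean log2 signal stood for it. They were 6 genes of the ZFP36 family, 6 of the CCR4-NOT complex, and pan3.S and parn.L as further deadenylase genes. A further 10 were grouped as decapping activators, with lsm8.S among them. The others were 4 genes of decapping enzymes and their enhancers, 9 of the RNA exosome and 3 of nonsense-mediated decay. Genes of the rule that carry no such probe set are not analysed here. Among them are xrn1, pan2, dcp2, cnot1, cnot7, cnot8 and lsm1. Xenopus laevis carries many genes as a pair of copies, or homeologs, one on an L and one on an S chromosome, and both copies are treated as separate genes.

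An mRNA usually loses its poly(A) tail first, through the PAN2-PAN3, CCR4-NOT or PARN nucleases. The decapping enzyme, helped by the LSM ring, DDX6 and PAT1 proteins, then opens the transcript to digestion from the 5' end, while the exosome digests it from the 3' end. In the frog oocyte and early embryo many maternal mRNAs are stored with short tails and translated when the tail is lengthened, and their decay after fertilisation clears the way for transcripts of the embryo's own genome. ZFP36 proteins bind AU-rich elements and bring the deadenylase to the mRNAs that carry them, while nonsense-mediated decay removes transcripts with early stop codons.

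The deposited values are signals on a linear scale. Differences were fitted with limma on log2(signal + 16), where a positive difference means a higher level in Nkx2-5+GFP embryos, and an adjusted p under 0.05 was the threshold for a call, with Benjamini-Hochberg adjustment over 15491 probe sets. Genes known from the gastrula, such as tbxt.S, sox17a.L and chrd.1.S, had mean signals of at least 156 in all 24 probe sets of a list of such genes, and 14 genes of later or adult tissues stayed at or below 65.5. Of the 2 nkx2-5.S probe sets, one was at 57.4 to 138 in GFP and 122 to 233 in Nkx2-5+GFP embryos, so the groups overlapped. It rose by 0.77 in log2 units (SE 0.21, limma adjusted p = 0.0431), a call lost when any 1 embryo other than GFP embryo 1, 4 or 5 or Nkx2-5+GFP embryo 5 was left out, and the labels do not say whether the injected mRNA holds the part it detects. The other, at 93.7 ± 20.7 in GFP and 140.5 ± 24.8 in Nkx2-5+GFP embryos (SD, n = 6 each), differed by 0.52 and stayed short of the threshold (SE 0.17, limma adjusted p = 0.0731), which it passed without GFP embryo 5. The log2 beta-actin 3' to 5' ratio, a sign of RNA quality or labelling, lay between 1.49 and 2.09 in GFP and between 1.42 and 1.74 in Nkx2-5+GFP embryos. The same ratio for gapdh was larger, between 4.53 and 5.56 in GFP and between 4.22 and 5.07 in Nkx2-5+GFP embryos, and was not used in a fit.

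A pair of embryos stood against their groups in many of the genes below. Among the 8 members with an adjusted p under 0.1, GFP embryo 5 was the GFP embryo nearest to the Nkx2-5+GFP mean in 7, and Nkx2-5+GFP embryo 5 was the one nearest to the GFP mean in 6. These genes were picked from the same contrast, so this is a description. The same count was not made over all probe sets, so the pattern is not shown to be particular to these genes. Where leaving out an embryo of this pair changed the call of a member, this is stated.

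Of the 40 members, limma called 1 higher (zfp36l1.S) and 2 lower (zfp36l2.2.L and parn.L) in Nkx2-5+GFP embryos, and 37 did not pass. That is 7.5%, against 6.38% of all 15491 probe sets and 6.97% of the 7531 named genes, so the members were called at about the rate of the array as a whole. By direction the shares were 2.5% higher and 5% lower for the members, and 3.12% and 3.26% for all probe sets. At an unadjusted p under 0.05 there were 11 members, or 27.5%, against 24.3% of all probe sets and 26.9% of the named genes. Their median difference was -0.00056 on the log2 scale, with 20 members higher and 20 lower, against -0.015 over all probe sets. The median size of a difference, without its sign, was 0.15 for the members, 0.18 for the named genes and 0.19 for all probe sets. The 95% interval of the difference lay within 1.5-fold in either direction for 26 members, or 65.0%. It did so for 57.7% of the named genes and for 51.0% of all probe sets. The median log2 level was 10.11 for the members, 9.21 for the named genes and 8.41 for all probe sets. These comparisons were not matched for level. Groups did not overlap in 1 member, zfp36l1.S, or 2.5%, against 2.99% of all probe sets. The members called higher numbered 3 without GFP embryo 5 and 4 without Nkx2-5+GFP embryo 5. Those called lower numbered 1 without Nkx2-5+GFP embryo 6 or GFP embryo 1 or 2, and 0 when GFP embryo 3, 4 or 6, or likewise Nkx2-5+GFP embryo 1 or 2, was left out. They numbered 4 without GFP embryo 5 and 3 without Nkx2-5+GFP embryo 5. The calls over all probe sets moved as well, from 988 to between 285 and 1485 with 1 embryo left out. With the beta-actin ratio as a covariate, 1 member was called higher and 0 lower, while the calls over all probe sets went from 988 to 160.

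**Figure D1:**
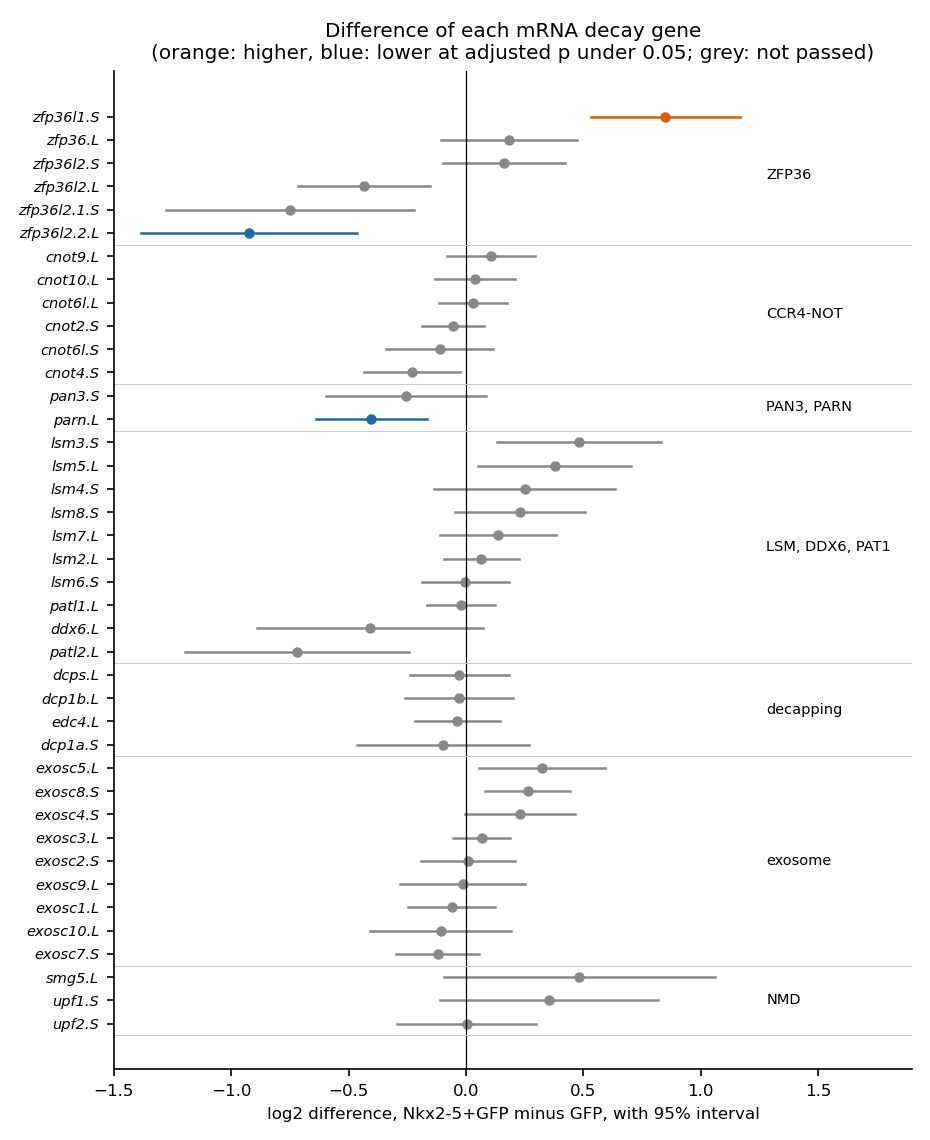
Log2 difference (Nkx2-5+GFP minus GFP) of each of the 40 mRNA decay genes, grouped by role, with points for the limma estimate and lines for its 95% interval. Only zfp36l1.S (orange) was called higher and zfp36l2.2.L and parn.L (blue) lower, and most CCR4-NOT, decapping enzyme and exosome genes lie near 0.

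The ZFP36 family had a median difference, without its sign, of 0.59, against 0.15 over all 40 members and 0.19 over all probe sets. Of its 6 genes, 1 rose, 1 fell and 4 did not pass, so 33.3% were called, against 6.38% of all probe sets. Its median log2 level was 8.43, below the 10.11 of the members and near the 8.41 of all probe sets. Its median SD (GFP, then Nkx2-5+GFP) was 0.26 and 0.28, against 0.18 and 0.21 for members and 0.25 and 0.28 for all probe sets. With only 6 genes and a wider spread than the members, these larger differences are a description. Of the 6, zfp36l2.2.L and zfp36l2.1.S may not be separate measurements, as described below. zfp36l1.S, which encodes a zinc finger protein that destabilises AU-rich mRNAs, had signals of 583 to 1041 with a median of 772 in GFP embryos and of 1135 to 1835 with a median of 1327 in Nkx2-5+GFP embryos. All 6 Nkx2-5+GFP embryos lay above all 6 GFP embryos. The gene rose by 0.85 on the log2 scale, or 1.80-fold (SE 0.15, limma adjusted p = 0.00664, 2-sided exact permutation p = 0.00216, the smallest that 6 against 6 can give). It was called in each of the 22 alternative fits, with limma's adjusted p at 0.00477 to 0.0244 and at 0.0244 with the beta-actin ratio in the fit. The identifier of its only probe set ends in s_at, which marks probe sets that can detect more than 1 transcript. In whole embryos, a different number of cells of a type and a different amount of RNA per cell cannot be told apart, here (more cells or more RNA per cell) and in the falls that follow (fewer cells or less RNA per cell).

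zfp36l2.2.L, another gene of the family, went the other way, with signals of 207 to 616 with a median of 427 in GFP and of 144 to 283 with a median of 207 in Nkx2-5+GFP embryos. All 6 Nkx2-5+GFP embryos lay below the GFP median. The groups overlapped through GFP embryo 5, at 207, which was the lowest of its group, while Nkx2-5+GFP embryo 5, at 283, was the highest of its own. The gene fell by 0.92 in log2 units (SE 0.22, limma adjusted p = 0.0251, exact permutation p = 0.00866). Its difference was -1.10 (limma adjusted p = 0.0036) without GFP embryo 5 and -1.02 (limma adjusted p = 0.0147) without Nkx2-5+GFP embryo 5. The call was lost when GFP embryo 3, 4 or 6, or among the others Nkx2-5+GFP embryo 1 or 2, was left out, and with the beta-actin ratio in the fit (limma adjusted p = 0.122), and over 21 alternatives limma's adjusted p ranged from 0.0036 to 0.122.

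The related gene zfp36l2.1.S is also known as C3H-4, and its protein drives deadenylation of AU-rich mRNAs during meiosis in frog oocytes. Its signals were 155 to 436 with a median of 262 in GFP and 75.6 to 232 with a median of 148 in Nkx2-5+GFP embryos. The groups overlapped, with GFP embryo 5 lowest among the GFP embryos at 155. The difference of -0.75 did not pass (SE 0.25, limma adjusted p = 0.0803, exact permutation p = 0.0238), though it did without GFP embryo 5 and under a replicate block (limma adjusted p = 0.0321 and 0.0414). Without Nkx2-5+GFP embryo 5 it did not pass (limma adjusted p = 0.113). A further probe set, annotated to zfp36l2.2.L and zfp36l2.1.S together and so assigned to neither, fell by 0.75 on the log2 scale, from 217 ± 59.2 to 119.7 ± 20.9 (SD, n = 6 each) (limma adjusted p = 0.033). Leaving out any 1 embryo other than GFP embryo 5 or Nkx2-5+GFP embryo 3, 4 or 5 ended that call. The identifiers of this probe set and of those of zfp36l2.2.L and zfp36l2.1.S share their first part. Whether each detects both genes was not tested, so the falls may not be separate measurements.

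The homeologs of zfp36l2 differed in how they stood between the groups. zfp36l2.L had signals of 349 to 407 with a median of 385 in GFP embryos, which lay close together, and of 208 to 358 with a median of 269.7 in Nkx2-5+GFP embryos. Only Nkx2-5+GFP embryo 4 reached the lowest GFP value. Its difference of -0.44 missed the threshold (SE 0.13, limma adjusted p = 0.0614, exact permutation p = 0.00433) and passed it without Nkx2-5+GFP embryo 3 or 4 and without the dimmer probe sets (limma adjusted p = 0.0485, 0.0468 and 0.039). The S copy, at 1379.9 ± 214 in GFP and 1546 ± 235 in Nkx2-5+GFP embryos (SD, n = 6 each), differed by 0.16 without passing (limma adjusted p = 0.454), and its other probe set by 0.011. Within each embryo, the log2 ratio of the L to the S probe set varied by 0.26 (SD) among the GFP and by 0.24 among the Nkx2-5+GFP embryos (n = 6 each). The mean ratio differed by -0.60 between the groups, so the copies did not differ alike, with an exact permutation p of 0.00649 and of 0.013 after Benjamini-Hochberg adjustment over the 2 homeolog pairs among the members. With each embryo left out in turn the adjusted p stayed under 0.05. The sixth member, zfp36.L, the gene of tristetraprolin, differed by 0.18 without passing, at 311 ± 48.7 in GFP and 355 ± 55.8 in Nkx2-5+GFP embryos (SD, n = 6 each).

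**Figure D2:**
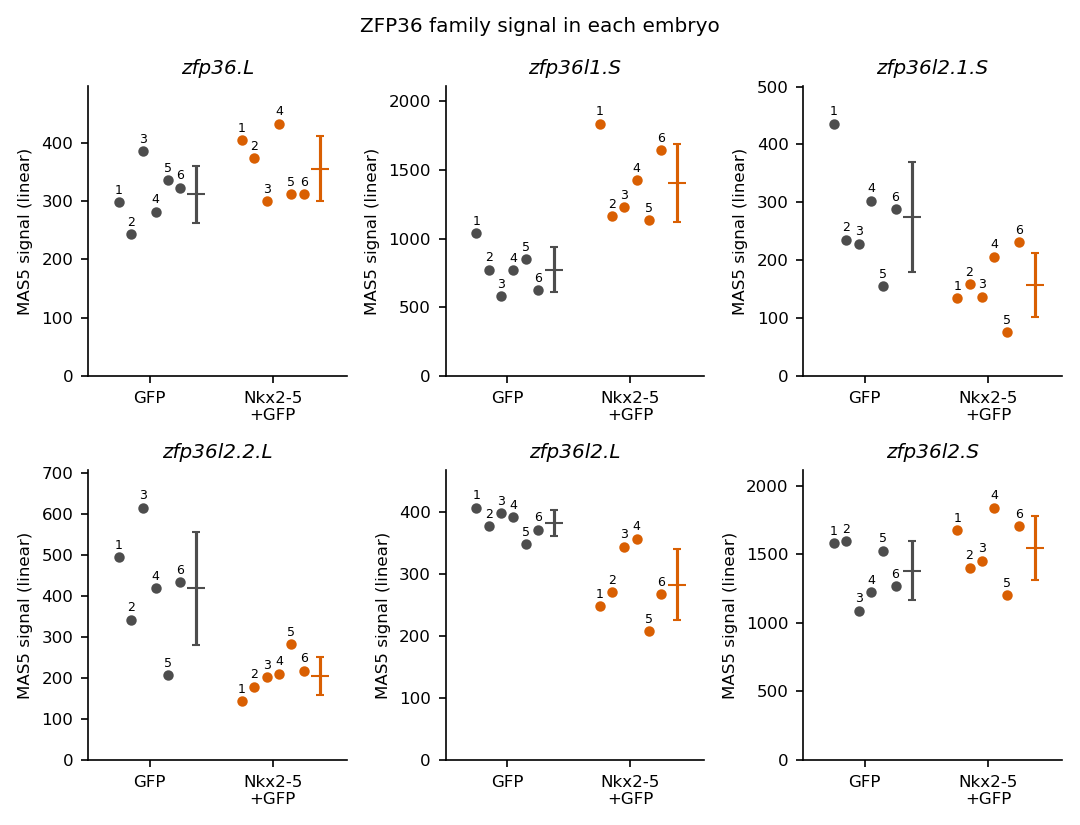
Signal of the 6 ZFP36 family genes in each embryo on a linear scale, with the embryo number above each point and the group mean and SD beside the points (n = 6 each). zfp36l1.S is higher in all Nkx2-5+GFP embryos, and for zfp36l2.2.L only GFP embryo 5 lies within the range of the Nkx2-5+GFP embryos.

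The CCR4-NOT complex is the main cytoplasmic deadenylase, and none of its 6 genes measured here passed the test. For all 6 the 95% interval of the difference lay within 1.5-fold. Other genes of the complex, cnot1, cnot7 and cnot8 among them, had no probe set that names them alone. cnot6l.L, which encodes a catalytic subunit, had signals of 5454 to 6055 with a median of 5708 in GFP and of 5277 to 6627 with a median of 5872 in Nkx2-5+GFP embryos. Its difference was 0.028 with a 95% interval of -0.12 to 0.17, and that of its homeolog cnot6l.S was -0.11 with an interval of -0.34 to 0.12. The L to S log2 ratio of cnot6l moved by 0.14, with an exact permutation p of 0.203, the same after adjustment over the 2 pairs. cnot2.S and cnot10.L, genes of structural subunits, differed by -0.056 and 0.039, and cnot9.L, a gene of a subunit that docks RNA-binding proteins, by 0.11. The difference of cnot4.S, which encodes an associated ubiquitin ligase, was -0.23 (SE 0.10, limma adjusted p = 0.153, exact permutation p = 0.0281). Its signals were 1634 to 2088 with a median of 1969 in GFP and 1336 to 1809.5 with a median of 1722 in Nkx2-5+GFP embryos, and the groups overlapped through GFP embryo 6.

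parn.L encodes the poly(A)-specific ribonuclease that, in frog oocytes, keeps stored mRNAs short-tailed against the poly(A) polymerase TENT2. Its signals were 1002 to 1379 with a median of 1211 in GFP and 704 to 1036 with a median of 923.6 in Nkx2-5+GFP embryos. The overlap came from GFP embryo 5, the lowest control at 1002, and from Nkx2-5+GFP embryos 5 and 6, the highest of their group at 1036 and 1004. The gene fell by 0.40 in log2 units (SE 0.11, limma adjusted p = 0.0444, exact permutation p = 0.00649). The call held without GFP embryo 5 (limma adjusted p = 0.0253) or Nkx2-5+GFP embryo 5 (limma adjusted p = 0.0258) and was lost without any 1 of the other 10 embryos. It was also lost with quantile normalization, without the intensity trend, with a replicate block and with the beta-actin ratio in the fit, and limma's adjusted p over 22 alternatives ranged from 0.0253 to 0.122, with all 22 differences below 0. The other parn.L probe set, at 274 ± 66.4 in GFP and 222 ± 48.6 in Nkx2-5+GFP embryos (SD, n = 6 each), had a difference of -0.28, which did not pass (limma adjusted p = 0.333). pan3.S, which encodes the adaptor of the PAN2 nuclease, differed by -0.26 with a 95% interval of -0.59 to 0.084, and by -0.30 in its other probe set.

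Among the 10 genes grouped as decapping activators, which include lsm8.S of a nuclear ring described below, 0 passed, and 3 had an unadjusted p under 0.05. patl2.L and patl1.L encode related scaffold proteins that link translational repression with decapping, of which PATL2 is the form of frog oocytes, also known as P100. patl2.L had signals of 604 to 1485 with a median of 1063 in GFP and of 394 to 821 with a median of 683 in Nkx2-5+GFP embryos. GFP embryo 5, at 604, lay inside the Nkx2-5+GFP range, and all 6 Nkx2-5+GFP embryos lay below the GFP median. The difference of -0.72 did not pass (SE 0.22, limma adjusted p = 0.0667, exact permutation p = 0.0238). It passed without GFP embryo 5 (limma adjusted p = 0.0175) or Nkx2-5+GFP embryo 5 (limma adjusted p = 0.0463), and all 22 alternatives had it below 0. patl1.L, at 13574 ± 1059 in GFP and 13382 ± 974 in Nkx2-5+GFP embryos (SD, n = 6 each), differed by -0.02 with a 95% interval of -0.17 to 0.13. ddx6.L, the gene of a helicase that represses maternal mRNAs in frog oocytes, had dim signals of 75.8 to 147 with a median of 103 in GFP and of 44.9 to 153 with a median of 69.7 in Nkx2-5+GFP embryos. The highest of all 12 values belonged to Nkx2-5+GFP embryo 6, and the difference of -0.41 did not pass (limma adjusted p = 0.292).

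The LSM genes encode subunits of a ring that binds the 3' end of deadenylated mRNA in the cytoplasm, and a sister ring holding LSM8 binds U6 RNA in the nucleus. Of the 7 measured, which do not include lsm1, 6 had a difference above 0 and none passed. Over all probe sets, 7386 of 15491 had a difference above 0. lsm3.S showed the largest, 0.48 (SE 0.16, limma adjusted p = 0.0881, exact permutation p = 0.0368), with signals of 1509.6 to 2909.7 with a median of 1822 in GFP and of 1932 to 3535 with a median of 2696 in Nkx2-5+GFP embryos. Here too the embryos numbered 5 ran against their groups, with GFP embryo 5 highest among the controls at 2909.7 and Nkx2-5+GFP embryo 5 lowest in its group at 1932, and lsm3.S passed without either one (limma adjusted p = 0.02 and 0.0352). lsm5.L differed by 0.38, lsm4.S by 0.25, lsm7.L by 0.14 and lsm2.L by 0.065, while lsm6.S stood at -0.0035 with an interval of -0.19 to 0.18. lsm5.L passed without Nkx2-5+GFP embryo 5 (limma adjusted p = 0.034). The probe sets of lsm8.S did not share a sign, with differences of 0.23, -0.22 and 0.068.

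The 4 decapping genes, 9 exosome genes and 3 genes of nonsense-mediated decay gave no calls. Around the decapping enzyme itself, dcp1b.L and dcp1a.S, which encode its activators, differed by -0.029 and -0.10, edc4.L, the gene of a decapping scaffold, by -0.036 and dcps.L, the gene of the enzyme that clears leftover caps, by -0.028. The 95% interval lay within 1.5-fold for all 4. The gene dcp2 was not among the members.

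The exosome is a ring of RNase PH-like subunits with a cap of RNA-binding subunits and attached nucleases. exosc8.S, a ring gene, had signals of 1401 to 1616 with a median of 1496 in GFP and of 1499 to 1987 with a median of 1904 in Nkx2-5+GFP embryos. Of the Nkx2-5+GFP embryos, 5 lay above the highest control and embryo 5 was the lowest, inside the GFP range. The difference of 0.26 did not pass (SE 0.086, limma adjusted p = 0.0786, exact permutation p = 0.013) but did without Nkx2-5+GFP embryo 5 and with array weights (limma adjusted p = 0.0259 at the lowest). The ring genes exosc5.L and exosc4.S differed by 0.32 and 0.23, and exosc5.L passed without GFP embryo 5 (limma adjusted p = 0.0443). exosc7.S and exosc9.L, also of the ring, differed by -0.12 and -0.015, and the cap genes exosc1.L, exosc2.S and exosc3.L by -0.061, 0.0071 and 0.067. exosc10.L, which encodes a nuclease of the nuclear exosome, differed by -0.11. For 8 of the 9 the interval lay within 1.5-fold, exosc5.L being the exception with 0.053 to 0.59.

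Of the genes of nonsense-mediated decay, upf1.S encodes its helicase, upf2.S an adaptor and smg5.L a factor that recruits decay enzymes. Both upf1.S, at 71.1 ± 31.4 in GFP and 90.5 ± 15.1 in Nkx2-5+GFP embryos (SD, n = 6 each), and smg5.L, at 34.9 ± 19.5 in GFP and 54.6 ± 22.9 in Nkx2-5+GFP embryos (SD, n = 6 each), were dim, with differences of 0.35 and 0.48 and wide intervals of -0.11 to 0.82 and -0.095 to 1.06. The brighter upf2.S probe set differed by 0.0024, with an interval of -0.29 to 0.30.

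**Figure D3:**
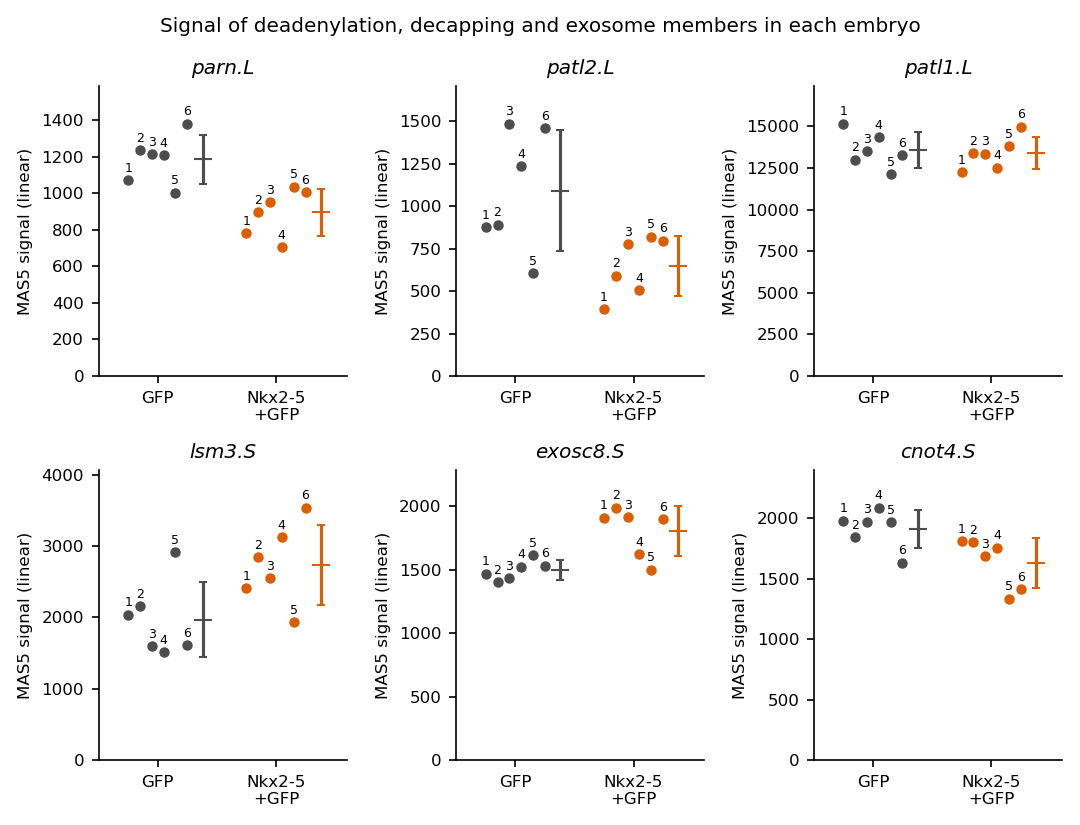
Signal of 6 further mRNA decay genes in each embryo on a linear scale, with embryo numbers, and the group mean and SD beside the points (n = 6 each). parn.L is lower in Nkx2-5+GFP embryos, and in parn.L, patl2.L and lsm3.S the embryos numbered 5 lie on the side of the other group.

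For 7 of the 40 members the array carries 8 further probe sets. None of these passed in limma, and 6 had the sign of the chosen probe set. The exceptions were a dimmer lsm7.L probe set, at -0.011, and the lsm8.S probe set at -0.22.

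Single embryos differed in how often they held the extreme value of their group. Nkx2-5+GFP embryo 5 was the lowest of its 6 in 16 of the 40 members, or 40.0%, while over all probe sets it was the lowest in 19.1%. Nkx2-5+GFP embryos 4 and 6 were the highest in 11 and 10 of the 40 members, while over all probe sets the shares were 17.3% and 24.2%. The share among the members was thus larger for embryo 4 and about the same for embryo 6. Among GFP embryos, embryos 3 and 5 were each the highest in 10 of the 40 members, while over all probe sets they were the highest in 22.3% and 15.7%. The share among the members was close to that of all probe sets for GFP embryo 3 and larger for GFP embryo 5. The median SD between embryos of a group, on the log2 scale, was 0.18 for the members in GFP and 0.21 in Nkx2-5+GFP embryos. It was 0.23 and 0.24 over the named genes and 0.25 and 0.28 over all probe sets.

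**Figure D4:**
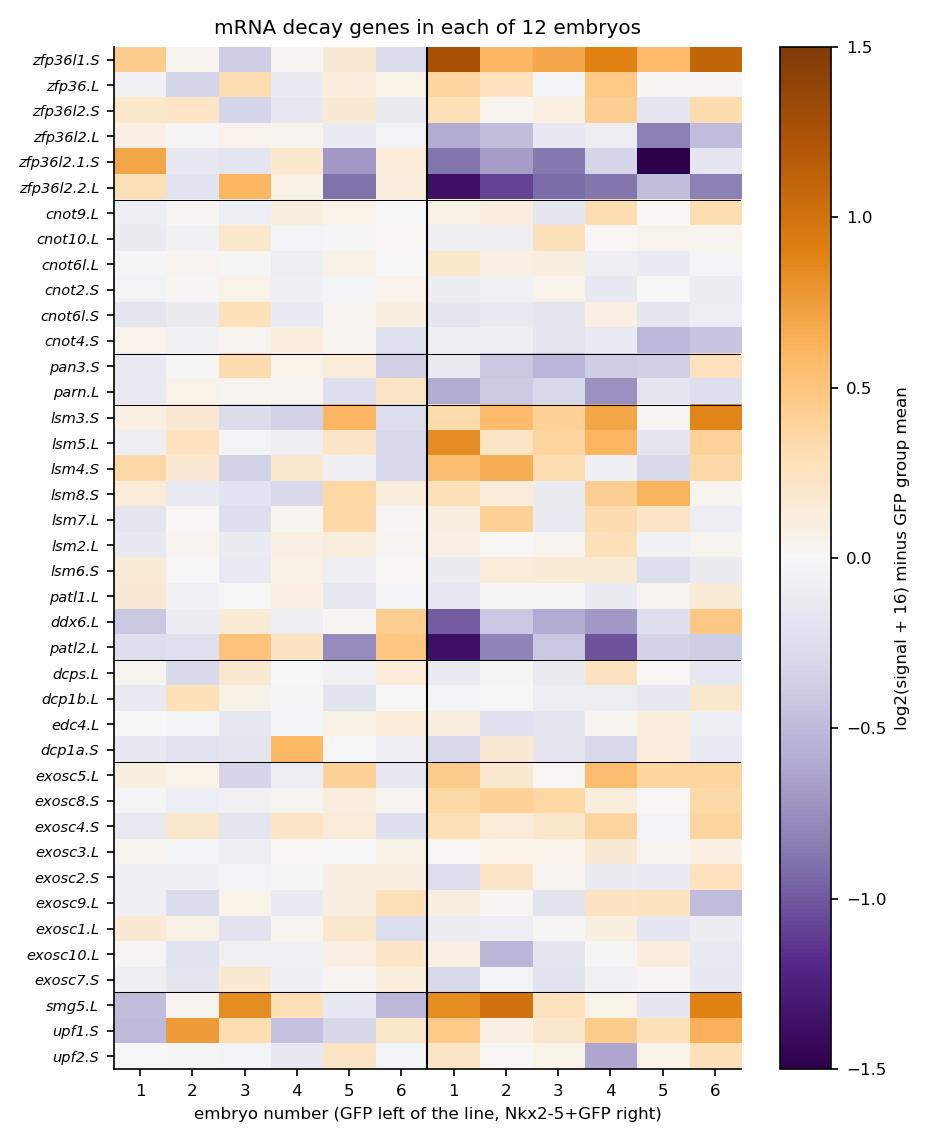
Each of the 40 genes in each of the 12 embryos, as log2(signal + 16) minus the mean of the 6 GFP embryos (orange higher, purple lower). Columns left of the line are GFP embryos and those right of it Nkx2-5+GFP embryos, and the rows of zfp36l2.2.L, parn.L and patl2.L are lower to the right of the line while zfp36l1.S is higher.

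Genes that work beside the decay factors were read from lists, which were chosen with earlier results of these data known. Of 16 measured genes that lengthen or bind the poly(A) tail, 0 rose, 1 fell and 15 did not pass, so 6.25% were called, about the 6.38% of all probe sets. The gene that fell was tent2.S, the gene of the poly(A) polymerase that lengthens stored mRNAs in the frog oocyte. Its signals were 6313 to 6496 with a median of 6370.3 in GFP and 4645 to 6241 with a median of 5099.8 in Nkx2-5+GFP embryos, which did not overlap, and Nkx2-5+GFP embryo 5 came closest to the controls. It fell by 0.28 in log2 units (SE 0.073, limma adjusted p = 0.0373, exact permutation p = 0.00216), a call lost when any 1 embryo other than GFP embryo 5 or Nkx2-5+GFP embryo 5 or 6 was left out, and with median scaling, the replicate block, no intensity trend or the beta-actin ratio in the fit. The poly(A)-binding protein genes pabpn1.S and pabpc1.S differed by 0.09 and 0.16 without passing.

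Of 29 genes of RNA-binding proteins that recruit decay or protect mRNA, 0 passed in limma, 10 (34.5%) had an unadjusted p under 0.05, against 24.3% of all probe sets, and the median difference was -0.17, against -0.015. btg1.L and caprin1.S differed by 0.29 and 0.019. Without GFP embryo 5, 2 of the 29 were higher and 3 lower, and 1 was higher and 1 lower without Nkx2-5+GFP embryo 5. Without GFP embryo 1, 1 was lower, and without Nkx2-5+GFP embryo 3, 1 was higher. Calls over all probe sets ranged from 285 to 1485 with 1 embryo left out. Without the dimmer probe sets, btg1.L was called higher and eif4enif1.L lower. Among 16 exosome cofactors and other nucleases 0 passed (4 at an unadjusted p under 0.05), with pnrc2.S at 0.064 and angel2.L at -0.00034, and 3 were lower without GFP embryo 5 and 1 without GFP embryo 2 or Nkx2-5+GFP embryo 5. In the same list, 1 was lower under the replicate block (eri1.L) and 1 without the dimmer probe sets (rbm7.L). None passed among 4 genes of small RNA silencing, where eif4e2.L differed by -0.08 and prkra.L by 0.041 (0 at an unadjusted p under 0.05), or among 11 of the exon junction complex, where eif4a3.1.S differed by 0.12 and rbm8a.L by 0.094 (2 at an unadjusted p under 0.05).

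Lists of maternal transcripts and of short-lived mRNAs were read in the same way, and whether the members act on them was not tested. In a list of 25 maternal transcripts, 21 had a difference below 0, the median was -0.27 against -0.015 over all probe sets, and 4 fell, 1 rose and 20 did not pass. The 5 calls are 20.0% of the list, against 6.38% of all probe sets. The list was chosen with earlier results of these data known, so these shares are a description. It counts both homeologs of some genes, and 24 of its 25 entries lay at or above the median level of all probe sets. It also shares genes with the list of RNA-binding proteins above, among them nanos1.L, btg4.L and btg4.S, at -0.41, -0.51 and -0.27. grip2.L, expressed in germ plasm, fell by 0.54 in log2 units (limma adjusted p = 0.023), mos.L, whose kinase holds the mature egg in meiosis, by 0.42 (limma adjusted p = 0.0273), wee2.S, a gene of a kinase that restrains mitotic entry, by 0.54 (limma adjusted p = 0.0294) and zpd.L, an egg coat gene, by 0.52 (limma adjusted p = 0.041). cdk2.S, whose mRNA is deadenylated in frog eggs after fertilisation, rose by 0.39 (limma adjusted p = 0.0447), and ccnb2.L and ccnb2.S, the brightest that did not pass, encode a mitotic cyclin and differed by -0.34 and -0.17. The count of falls was 9 without GFP embryo 5, 5 without Nkx2-5+GFP embryo 5, 2 without GFP embryo 2, and 1 without GFP embryo 4 or Nkx2-5+GFP embryo 2 or 4. It was 0 when Nkx2-5+GFP embryo 1, GFP embryo 3 or GFP embryo 6 was left out. Calls over all probe sets also moved in such fits, between 285 and 1485. The call for cdk2.S was lost without any 1 embryo other than GFP embryo 5 or Nkx2-5+GFP embryo 3. Without the intensity trend, 0 of the 25 rose and 1, grip2.L, fell, and with the beta-actin ratio in the fit 0 rose and 0 fell.

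The summed signal of the 25 maternal transcripts ran from 58767 to 90042 in GFP and from 53451 to 65416 in Nkx2-5+GFP embryos, and no member of the list was at 0. GFP embryo 5 had the lowest sum of its group and Nkx2-5+GFP embryo 5 the highest of its own. The latter lead was narrow, with Nkx2-5+GFP embryos 6 and 3 at 64919 and 64875. The embryos numbered 5 had the same ranks in zfp36l2.2.L, parn.L and patl2.L, genes already named for these embryos. In zfp36l2.1.S and zfp36l2.L, GFP embryo 5 was again the lowest of its group. There, however, Nkx2-5+GFP embryo 5 was the lowest of its own group, at 75.6 and 208, and not the highest. The part of the maternal transcripts in those differences was not tested. In 25 short-lived mRNAs that carry AU-rich elements in mammals, 0 passed in limma (6 at an unadjusted p under 0.05), with a median difference of -0.046 and with the brightest, ptgs2.S and dusp1.L, at 0.15 and 0.017. Without GFP embryo 5, 1 of them was called higher and 1 lower, and without Nkx2-5+GFP embryo 5, 1 was called lower.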

How the data were processed

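Each of the 12 arrays held the RNA of 1 embryo, labelled from 100 ng of total RNA in a 2-cycle protocol, per the labels. The submitters' processing notes name MAS5 as the authors' method, and the deposited table holds 1 intensity for each probe set and array, called signal here. The MAS5 version and scaling target are not given in the sources used, and the linear scale was read from the values. Trimmed means (without the lowest and highest 2%) were 999.5 to 999.6 on every array, and no further scaling was applied. Signals were transformed as log2(signal + 16), which compresses differences of dim probe sets. After leaving out 120 control probe sets, 15491 were fitted with limma 3.58.1 in R 4.3.3 (lmFit, eBayes with an intensity trend, 2-sided, 10 residual degrees of freedom), with no filter on low values. limma's adjusted p-values are Benjamini-Hochberg over all of them, and an SE is its moderated standard error. Exact permutation tests ran over every assignment of the 12 embryos to groups of 6, with 0.00216 the smallest p. The fit was tested on simulated data, where changed probe sets were drawn from those above the median level. It called 54% of 100 changed by 0.5 in log2 units and 90% of 100 changed by 1, with 8 false calls. Values were simulated independently for each probe set, so these rates do not cover variation that an embryo shares across genes. The number of arrays limits the precision.

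Names come from GEO's platform annotation, updated by gene number with RefSeq (Xenopus_laevis_v10.1, names only). This paired 9304 probe sets with 1 gene and 195 with several, and left 5992 unnamed. Levels were set side by side between genes to name bright or dim ones, to leave out the dimmer probe sets, in the L to S ratios and in the maternal sum. The members, lists and tests were chosen with earlier results of these data known. Named genes are every called member, the member of largest difference and of highest mean in each role, their homeologs and further probe sets, of each list up to 4 called genes by smallest p and the 2 brightest that did not pass, and nkx2-5. Other members and exceptions were named after their values were seen. Alternatives were pseudocounts of 1 and 64, leaving out dimmer probe sets, quantile and median scaling, eBayes without trend or robust, array weights, a replicate block, the beta-actin ratio as a covariate, each embryo left out, all probe sets of the members, and probe sets not ending in s_at or x_at.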

Additional observations from a re-analysis of the deposited data

Results flagged for a closer look

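In 10 groups of 6 embryos, of 150 tested over the members and the other named probe sets, 1 embryo stood far from the rest of its group by Dixon's criterion, where chance gives about 5%, or 1 in 20. Nkx2-5+GFP embryo 4 was the highest of its group for cnot6l.S (497, against 438 for the next) and for dcps.L (1391, against 1166 for the next), and the lowest for upf2.S (341, against 534 for the next). Nkx2-5+GFP embryo 3 was the highest for cnot10.L (2595, against 2222 for the next), and GFP embryo 4 the highest for dcp1a.S (156, against 97.3 for the next). Nkx2-5+GFP embryo 5 was the lowest for pabpn1.S (6210.2, against 7437 for the next), for pabpc1.S (5408, against 7153 for the next) and for eif4a3.1.S (20289, against 24909 for the next). pabpc4.L had a lone value in each group, the lowest in GFP embryo 3 (53.0, against 97.2 for the next) and the highest in Nkx2-5+GFP embryo 1 (316, against 188 for the next). None of these genes passed the comparison of the groups.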

How the results depend on the processing

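Over 75 named probe sets, 1512 of 1634 comparisons of a difference under an alternative stayed on the same side of the threshold, 98 lost a call, 24 gained one and 0 reversed a called difference. Most of these probe sets were not called in the main fit and so had no call to lose. The share that stayed therefore does not measure how stable the calls were. The count of calls over all probe sets, 988, was 437 without the intensity trend, 160 with the beta-actin ratio in the fit and 285 to 1485 with 1 embryo left out. Members called higher, 1, numbered 2 with array weights, 0 with probe sets not ending in s_at or x_at, which leaves out the only zfp36l1.S probe set, and 1 to 4 with 1 embryo left out. Members called lower, 2, numbered 1 with quantile normalization or without the intensity trend, 0 with the beta-actin ratio and 0 to 4 with 1 embryo left out. The cause of these shifts was not tested. The median difference of the members was 0.050 with median scaling and -0.01 to 0.02 with 1 embryo left out. With the replicate number as a block, limma called 779 probe sets, 1 member higher and 2 lower, with zfp36l2.1.S gained and parn.L lost. Same-numbered embryos deviated together with correlations of -0.34 to 0.31, 4 of the 6 pairs over 0.1, and 2 of 6 GFP embryos matched their own number best. The labels do not say whether the numbers pair embryos, and since not every pair was over 0.1 they were treated as unpaired. Dim members (smg5.L, upf1.S, ddx6.L and dcp1a.S) limit what can be seen of their genes.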

Other observations

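pabpc4.L, a gene of a cytoplasmic poly(A)-binding protein, was named after its values were seen. Its signals were 53.0 to 131 with a median of 116 in GFP and 136 to 316 with a median of 169.5 in Nkx2-5+GFP embryos, and the groups did not overlap, yet the difference of 0.71 did not pass (SE 0.22, limma adjusted p = 0.067, exact permutation p = 0.00216). It passed with the replicate number as a block. rbm7.L, the gene of a subunit that guides the nuclear exosome to its targets, was likewise named after its values were seen. Its signals were 3406 to 4560.2 with a median of 3927 in GFP and 2759.9 to 3385 with a median of 3258 in Nkx2-5+GFP embryos, with no overlap, and the difference of -0.30 did not pass (SE 0.086, limma adjusted p = 0.0509, exact permutation p = 0.00216). It passed when GFP embryo 2, GFP embryo 5 or Nkx2-5+GFP embryo 5 was left out, and without the dimmer probe sets. Groups that do not overlap always give the exact permutation p of 0.00216. For pabpc4.L and rbm7.L, as for zfp36l1.S and tent2.S, it therefore only restates the lack of overlap. Over all probe sets, groups did not overlap in 2.99%. The L copy of the poly(A) polymerase gene, tent2.L, differed by -0.45 without passing (limma adjusted p = 0.106), in the direction of tent2.S.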
